A study of Rattus norvegicus with 10 samples.

Results

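The genes described here encode the phosphatases and adaptor proteins that switch the MAP kinase pathways off again: the dual-specificity phosphatases Dusp1, Dusp2, Dusp4, Dusp5, Dusp6 and Dusp10, the Sprouty proteins Spry1, Spry2 and Spry4, and the Sprouty-related Spred1. They were chosen by symbol, as all probe sets whose platform annotation names a single listed gene. Of the 10 genes, 9 were measured, by 12 of the 31042 probe sets tested; no probe set carried Spred1 as its single symbol. The samples were nasal transitional epithelium of male F344/N rats, aged 5 to 6 weeks when the study began, cut out by laser capture microdissection. The 5 treated rats had N,N-dimethyl-p-toluidine (DMPT, an aromatic amine that speeds the setting of acrylic cements) at 120 mg/kg/day in corn oil by gavage for 5 days, and the 5 vehicle rats had corn oil on the same schedule. Each array came from its own animal, 5 arrays per group, and no group carried a genetic change. The small amounts of RNA that laser capture yields were amplified before hybridisation.

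A growth factor receptor passes its signal through Ras, RAF and MEK to the kinase ERK, which enters the nucleus and switches on early genes. Among those early genes are brakes on the pathway itself. The DUSP enzymes remove the activating phosphates from ERK, p38 or JNK, and Sprouty and SPRED proteins act near the membrane to limit the passage of the signal to Ras and RAF. In epithelia these brakes set how long a growth or wound signal lasts.

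The brakes did not move as a block. Transcripts of the nuclear phosphatases Dusp5 and Dusp4 rose after DMPT, by 2.39-fold and 1.57-fold, while those of Spry1 and Spry2 fell, by 1.51-fold and 1.41-fold. The other 5 measured genes did not pass the test, among them Dusp6, the ERK phosphatase of the cytoplasm. Meanwhile 16 of 25 other genes known to be switched on by ERK rose and 0 fell. That list was drawn up with some of the rises already known, so its count is not an independent test. A gene counts as risen or fallen where limma's p-value, adjusted over all probe sets, was below 0.05. By this rule 13.9% of all 14217 genes were called in either direction, 7.13% higher and 6.77% lower. The background over probe sets was 11.1%, against 4 of the 12 probe sets of the feedback genes. For 3 of the 9 genes the groups did not overlap, as for 13.9% of all genes. The feedback genes too were chosen with earlier results of these data known, so their shares are not an independent test. The median difference of the 9 genes was 0.29 log2 units, beside -0.0052 over all genes, but it lies among values of both signs.

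The sequence upstream of the gene starts is shown for the gene with the largest rise, the pair that fell and Dusp1, the best known early gene of the family. Each is the 250 bases before a RefSeq gene start, 5′ to 3′ on the strand of the gene, assembly GRCr8. Such windows were given for 9 of the 10 genes, all but Dusp4, and Spry2 has a window at each of its listed starts. Capitals mark matches to a CArG box, the core of the serum response element, or to the cyclic AMP element CRE (TGACGTCA). They also mark an E box (CACGTG) or an NRF2 type element (TGACNNNGC), all on either strand.
Dusp5, chr1:262543524-262543773, plus strand: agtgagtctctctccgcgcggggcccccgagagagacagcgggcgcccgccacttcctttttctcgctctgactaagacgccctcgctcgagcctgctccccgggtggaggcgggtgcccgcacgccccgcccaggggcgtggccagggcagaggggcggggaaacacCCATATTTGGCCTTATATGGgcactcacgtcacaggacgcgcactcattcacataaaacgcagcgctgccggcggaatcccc
Dusp1, chr10:17184603-17184852, plus strand: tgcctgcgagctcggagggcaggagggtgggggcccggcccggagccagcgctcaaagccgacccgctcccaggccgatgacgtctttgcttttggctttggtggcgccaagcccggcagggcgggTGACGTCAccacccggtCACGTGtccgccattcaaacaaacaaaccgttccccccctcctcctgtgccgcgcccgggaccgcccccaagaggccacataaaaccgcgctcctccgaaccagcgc
Spry1, chr2:122485097-122485346, plus strand: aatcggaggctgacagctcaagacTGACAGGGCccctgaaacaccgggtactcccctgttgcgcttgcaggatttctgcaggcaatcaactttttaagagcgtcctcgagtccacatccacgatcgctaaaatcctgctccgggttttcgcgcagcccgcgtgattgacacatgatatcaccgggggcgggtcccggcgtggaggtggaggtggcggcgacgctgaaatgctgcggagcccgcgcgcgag
Spry2, chr15:89111927-89112176, minus strand: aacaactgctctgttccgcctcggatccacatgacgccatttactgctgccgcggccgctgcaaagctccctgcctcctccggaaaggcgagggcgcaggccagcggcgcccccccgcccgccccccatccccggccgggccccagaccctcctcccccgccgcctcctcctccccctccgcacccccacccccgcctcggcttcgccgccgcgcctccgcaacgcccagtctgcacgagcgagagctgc

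The Dusp5 window holds 2 CArG boxes in direct succession, which begin 82 and 72 bases before the gene start. Of all 33469 windows of this length, 1.5% hold a CArG box, and among the 10 windows of the feedback genes that of Dusp5 was the 1 that did. The Dusp1 window holds a CRE, as do 1.59% of all windows, and an E box, as do 5.59%. The Dusp2 window also holds an E box. The Spry1 window and the other Spry2 window each hold an NRF2 type element, found in 10.1% of all windows, and the Spry2 window printed above holds none of the motifs shown in capitals. The AP-1 motif TGANTCA and the ETS core CCGGAAG were found in 0 of the 10 windows, against 6.34% and 7.27% of all windows. The short CRE core TGACG, not capitalised because it is common (18.2% of all windows) and overlaps the CRE, stands in the Dusp1, Dusp2, Dusp5 and printed Spry2 windows. A match of letters describes the window and says nothing of whether a factor binds there.

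All values below are log2 expression values as the authors deposited them, and a difference is log2 DMPT minus vehicle. A difference of 1 is a doubling. Values after ± are SD over 5 animals for group means and standard errors of the limma fit for differences. Vehicle replicate 2 stood apart from its group, with a mean correlation of 0.975 with the other vehicle arrays, where the other arrays had between 0.985 and 0.991 within their groups. Without it the same 4 feedback genes passed the test: Dusp5 differed by 1.43, Dusp4 by 0.61, Spry1 by -0.62 and Spry2 by -0.49. The 3′ minus 5′ log2 signal averaged over the control probe sets for Gapdh and actin, a measure of RNA quality that is higher where RNA is more broken, was between 0.87 and 1.30 in DMPT arrays and between 1.17 and 1.497 in vehicle arrays.

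**Figure D1:**
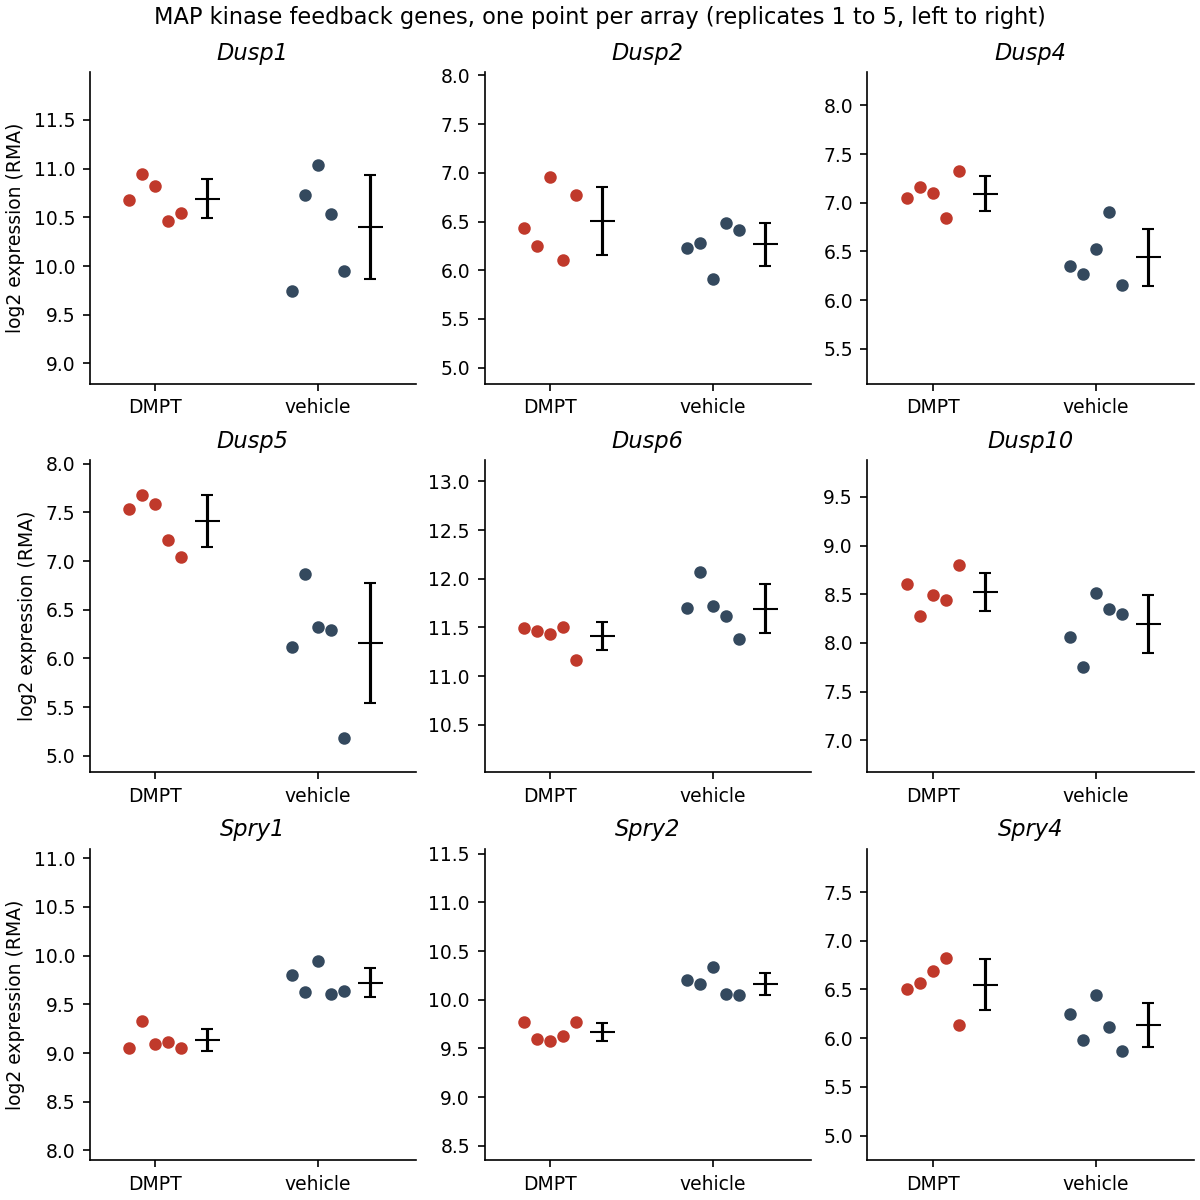
Log2 expression of the 9 measured feedback genes, each by its brightest probe set, with 1 point per array and the mean ± SD of 5 arrays as a bar; every panel spans the same number of log2 units on the vertical axis. The DMPT points of Dusp5 lie above all vehicle points, those of Spry1 and Spry2 lie below all vehicle points, and in the other 6 panels the groups overlap.

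Dusp5 is a nuclear phosphatase that acts on ERK and on no other MAP kinase. Its probe set read 7.53, 7.68, 7.59, 7.22 and 7.04 in DMPT replicates 1 to 5, against 6.12, 6.87, 6.33, 6.30 and 5.19 in vehicle replicates 1 to 5. All 5 DMPT arrays were above every vehicle array, and vehicle replicate 5 was the lowest. The means were 7.41 ± 0.27 after DMPT and 6.16 ± 0.61 with vehicle, a difference of 1.25 ± 0.26 (limma, adjusted p = 0.00974). Without vehicle replicate 5 the difference was 1.01 (adjusted p = 0.00629). The vehicle mean was dimmer than the lower quartile of every array (6.37 to 6.51), a range in which arrays understate folds, so the size of the rise is uncertain.

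Dusp4, also nuclear, acts mainly on ERK and JNK and is itself induced by ERK signalling. It read 7.05, 7.16, 7.10, 6.84 and 7.33 in the DMPT arrays, against 6.35, 6.27, 6.52, 6.91 and 6.16 in the vehicle arrays. The groups met at their edges, since DMPT replicate 4 lay just under vehicle replicate 4. The mean was 7.09 ± 0.18 after DMPT and 6.44 ± 0.29 with vehicle, and the difference was 0.65 ± 0.14 (limma, adjusted p = 0.014). Once the RNA quality ratio entered the fit it was 0.58 and no longer passed (adjusted p = 0.0694). This probe set was dim too, with its vehicle mean within the range of the lower quartiles.

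Of the other nuclear phosphatases, Dusp1 removes phosphates from p38 and JNK as well as ERK and is an early gene of stress and of glucocorticoids. Its brighter probe set read 10.68, 10.95, 10.82, 10.46 and 10.54 in DMPT arrays, against 9.75, 10.73, 11.03, 10.54 and 9.95 in vehicle arrays. The vehicle animals varied more than the treated ones, and the DMPT values lay within their range. The difference was 0.29 ± 0.22 (adjusted p = 0.481), with a 95% confidence interval from -0.20 to 0.78. The second Dusp1 probe set, dim at means of 6.30 ± 0.17 after DMPT and 6.13 ± 0.37 with vehicle, differed by 0.17 ± 0.17.

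Dusp2, best known as a phosphatase of activated lymphocytes, read between 6.11 and 6.95 in DMPT arrays, with a median array at 6.43, against 5.91 to 6.48 in vehicle arrays, with a median of 6.28. DMPT replicates 3 and 5 were above all vehicle arrays and the other DMPT arrays were not. The difference of 0.24 ± 0.17 did not pass (adjusted p = 0.436; interval from -0.13 to 0.61), and the probe set was among the dimmest quartile of the table. Of the 11 leukocyte markers measured, 3 rose and 1 fell, beside 7.13% of all genes called higher and 6.77% called lower. The summed log2 level of these markers was 95.1 to 100.1 in DMPT arrays and 96.5 to 97.3 in vehicle arrays.

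Dusp6, the cytoplasmic phosphatase for ERK, is often read as a gauge of ERK activity. It is measured by 3 probe sets, and none passed the test. The brightest read 11.50, 11.46, 11.43, 11.50 and 11.17 in DMPT arrays, against 11.70, 12.07, 11.72, 11.61 and 11.38 in vehicle arrays. DMPT replicate 5 was below every vehicle array, and the other DMPT arrays lay within the vehicle range. The difference was -0.28 ± 0.13 (adjusted p = 0.188; interval from -0.56 to -0.01, not adjusted for the number of probe sets). The second bright probe set had nearly the same difference, -0.31 ± 0.12 (adjusted p = 0.13), and the third, at a mean of 7.95, had -0.01 ± 0.13 (adjusted p = 0.974). The highest upper limit of the 3 intervals was 0.27, below the differences seen for Dusp4 and Dusp5. No test between genes was run.

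Dusp10 acts on p38 and JNK and spares ERK. It read 8.61, 8.28, 8.49, 8.44 and 8.80 after DMPT, against 8.06, 7.75, 8.51, 8.35 and 8.30 with vehicle. DMPT replicates 1 and 5 were above all vehicle arrays. The difference of 0.33 ± 0.15 did not pass (adjusted p = 0.191; interval from 0.01 to 0.65), and it was 0.22 without vehicle replicate 2 and 0.11 once the RNA quality ratio entered the fit.

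Sprouty proteins bind adaptors of growth factor receptors, and their loss prolongs ERK signalling in several epithelia. Spry1 read 9.06, 9.33, 9.10, 9.12 and 9.05 in DMPT arrays, against 9.80, 9.63, 9.95, 9.61 and 9.64 in vehicle arrays. Every DMPT array was below every vehicle array. The means were 9.13 ± 0.11 after DMPT and 9.72 ± 0.15 with vehicle, so Spry1 fell by 0.59 ± 0.097 log2 units (limma, adjusted p = 0.00269), the smallest p among the feedback genes.

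Spry2 behaved alike. It read 9.77, 9.60, 9.57, 9.63 and 9.78 in DMPT arrays, against 10.20, 10.16, 10.33, 10.06 and 10.05 in vehicle arrays, again without overlap. It fell by 0.49 ± 0.089 log2 units (adjusted p = 0.00484), with means of 9.67 ± 0.096 after DMPT and 10.16 ± 0.12 with vehicle. Both probe sets lay in the middle to upper range of the table, where neither background nor saturation is near. The falls of Spry1 and Spry2 passed under all 17 alternative settings each, with values from -0.64 to -0.54 and from -0.54 to -0.45.

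Spry4, the third Sprouty measured, did not share that fall. It read 6.51, 6.57, 6.69, 6.83 and 6.13 after DMPT, against 6.24, 5.99, 6.45, 6.12 and 5.87 with vehicle. DMPT replicates 1 to 4 were above all vehicle arrays, and DMPT replicate 5 lay among them. The difference was 0.42 ± 0.15 and did not pass (adjusted p = 0.0946), and without DMPT replicate 5 it was 0.52 and passed (adjusted p = 0.037). Its interval, 0.10 to 0.73, lies wholly above those of Spry1, -0.81 to -0.38, and Spry2, -0.69 to -0.30. The probe set was among the dimmest quartile of the table, and no test between members was run.

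**Figure D2:**
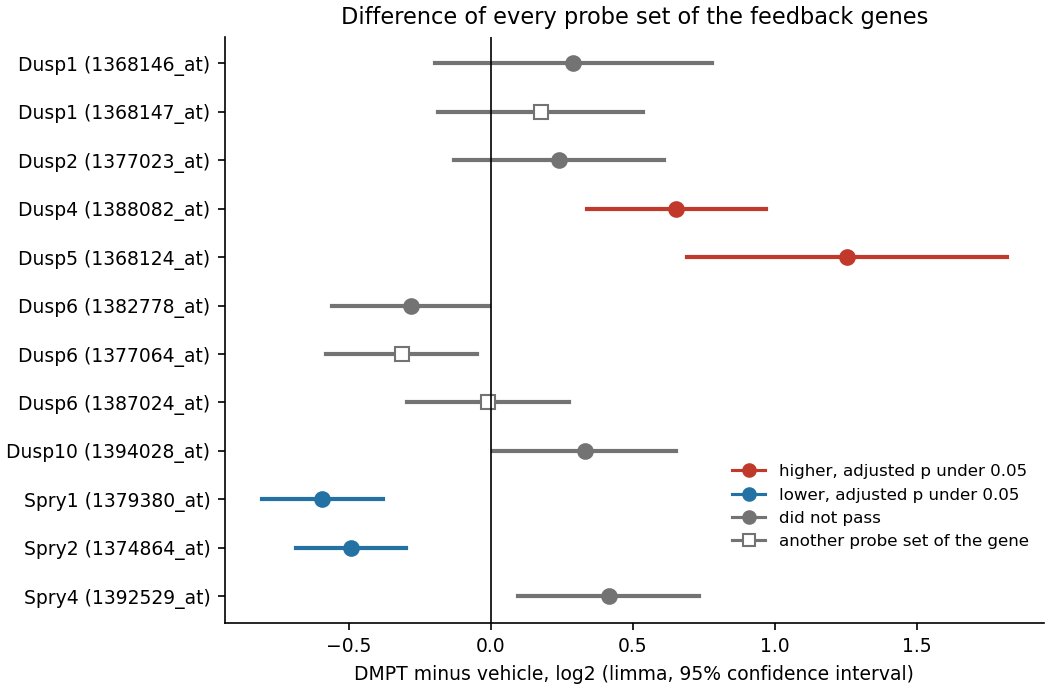
Difference between DMPT and vehicle (horizontal axis, log2) for each of the 12 probe sets of the feedback genes, with 95% confidence intervals of the limma fit that are not adjusted for the number of probe sets; filled circles are the brightest probe set of a gene and open squares its others. Dusp4 and Dusp5 lie to the right of 0, Spry1 and Spry2 to the left, and the 3 probe sets of Dusp6 between -0.31 and -0.01.

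Other cell types in the captured tissue moved in the same comparison, and in bulk tissue fewer cells of a type and less RNA per cell cannot be told apart. The marker counts stand beside 7.13% of all genes called higher and 6.77% called lower. Whether any marker list differs from that background was not tested. Of 10 endothelial markers, 7 rose and 0 fell, among them Pecam1 by 1.15 ± 0.17 and the VEGF receptor gene Kdr by 2.06 ± 0.38; Cldn5 was the 1 marker in the dimmest quartile. Their summed log2 level was 72.1 to 84.0 in DMPT arrays and 62.1 to 73.6 in vehicle arrays. Of 6 ciliated cell markers, 5 fell and 0 rose, with a summed level of 54.5 to 65.3 in DMPT arrays and 65.2 to 72.8 in vehicle arrays. Of 6 olfactory markers, 3 fell and 1 rose, with a summed level of 45.3 to 50.7 in DMPT arrays and 48.7 to 51.4 in vehicle arrays. Of 7 muscle markers, 4 of them below the lower quartile, 1 fell and 0 rose. Their summed level did not overlap, at 46.3 to 49.8 in DMPT arrays and 50.1 to 51.4 in vehicle arrays. Of 6 neutrophil markers, 5 of them below the lower quartile, 1 rose and 0 fell, and of 5 gland markers 1 fell and 0 rose. Endothelium also expresses DUSP and Sprouty genes, and the part of any of these shifts in the rises of Dusp4 and Dusp5 and the falls of Spry1 and Spry2 was not tested. All 10 epithelial markers had means above the lower quartile, as did all 10 stromal and all 6 ciliated cell markers, so detection alone does not set the labelled epithelium apart. Epithelial markers had a summed level of 130.2 to 131.1 in DMPT arrays and 125.5 to 129.0 in vehicle arrays, with Krt5, Krt8 and Cldn7 higher. The 10 stromal markers had 0 calls by limma and a summed level of 91.3 to 100.1 in DMPT arrays and 91.2 to 100.5 in vehicle arrays.

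For each called feedback gene, the genes with the most similar values over the 10 arrays were found. Similarity was the smallest root mean square difference after each gene was centred on its vehicle mean. Genes picked in this way tend to share the treatment difference of the feedback gene, so their own calls are not separate evidence. Dusp5 was nearest to Ska1, a gene of the spindle attachment complex, at 0.20 log2 units, and to Phyhip at 0.26. Ska1 rose by 1.21 ± 0.29 (adjusted p = 0.0195), a call that was lost without DMPT replicate 3 (adjusted p = 0.0538). Dusp4 was nearest to Ankrd13b, at 0.16, and to Bach1, a repressor of NRF2 target genes, at 0.18; Bach1 rose by 0.67 ± 0.14 and lost its call once the RNA quality ratio entered the fit (0.49, adjusted p = 0.0633). Spry1 was nearest to Dbt, a subunit gene of the branched-chain keto acid dehydrogenase, at 0.089, and to the ubiquitin ligase gene Rnf130 at 0.099. Dbt lost its call in the same way (-0.45, adjusted p = 0.0551). Spry2 was nearest to the Fanconi anaemia gene Fance, at 0.079, and to the histone reader gene Phf21a at 0.097.

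The genes that ERK signalling is known to switch on, other than the feedback genes, were set beside them. Of 25 measured, 16 rose and 0 fell, with a median difference of 0.69, beside a background of 7.13% of genes called higher and a median of -0.0052. Some of these genes were already known to rise in these samples when the list was drawn up, so the count is not an independent test. Maff, a small Maf transcription factor, read 11.10, 11.30, 11.52, 11.28 and 10.39 in DMPT arrays, against 7.51, 6.72, 8.29, 7.88 and 7.61 in vehicle arrays, and rose by 3.52 ± 0.28 (adjusted p = 3.03e-05). Ereg, which encodes the EGF receptor ligand epiregulin, read 9.12, 9.70, 9.61, 9.69 and 8.30 after DMPT, against 6.16, 5.98, 6.72, 6.31 and 6.80 with vehicle, and rose by 2.89 ± 0.27. For both genes DMPT replicate 5 was the lowest treated array, as it was for Dusp5, Dusp6, Spry1 and Spry4. For Dusp4, Dusp10 and Spry2 that replicate was the highest treated array, and for Dusp1 and Dusp2 it was neither. Tnfrsf12a, the TWEAK receptor gene, rose by 1.41 ± 0.11.

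Within that list the transcription factors of the PEA3 family, which are induced with Dusp6 and Sprouty genes downstream of FGF and EGF receptors, were singled out after their values were seen. Etv4 rose by 0.77 ± 0.19 (adjusted p = 0.0242), with 7.38 on average after DMPT and 6.61 with vehicle, while its dimmer second probe set differed by 0.22 ± 0.13 (adjusted p = 0.331). Etv5 differed by 0.44 ± 0.15 (adjusted p = 0.08) and Etv1 by -0.22 ± 0.17 (adjusted p = 0.5), and neither passed. The early factor Egr1, singled out in the same way, rose by 2.20 ± 0.33.

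**Figure D3:**
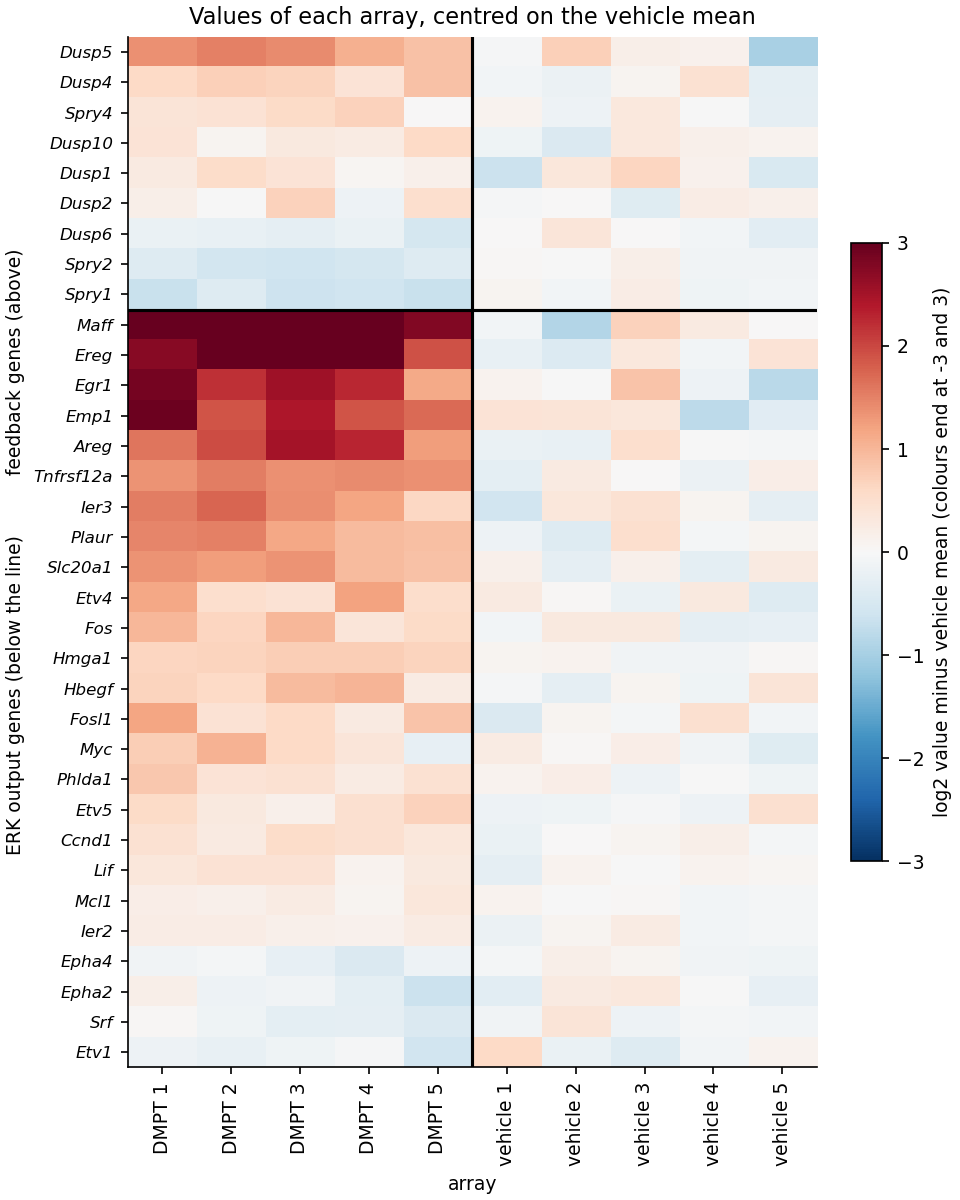
Log2 value of each array minus the vehicle mean of the gene, for the 9 feedback genes above the line and 25 ERK output genes below it; columns are the 5 DMPT arrays and then the 5 vehicle arrays, and colours end at 3 log2 units in either direction. Maff, Ereg, Egr1 and Emp1 are high in every DMPT array, while Spry1 and Spry2 are low in every DMPT array.

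The counts in the remaining parts of the pathway stand beside the background of 7.13% of all genes called higher and 6.77% called lower. Whether any list differs from that background was not tested. These lists too were drawn up with earlier results of these data known. Of 14 other DUSP genes measured, Dusp8 rose and 0 fell, with a median of -0.025. Dusp8, a phosphatase for JNK and p38, read between 5.60 and 6.14 in DMPT arrays and between 4.97 and 5.73 in vehicle arrays, a difference of 0.62 ± 0.16 (adjusted p = 0.0303) at a level near background. It lost its call without any 1 of 7 arrays: DMPT replicates 1, 2, 4 or 5 or vehicle replicates 1, 3 or 4. Once the RNA quality ratio entered the fit, the difference was 0.65 ± 0.20 and did not pass (limma, adjusted p = 0.0782). Dusp18 differed by -0.47 ± 0.14 (adjusted p = 0.0545) and Dusp14 by -0.81 ± 0.29 (adjusted p = 0.0985). Dusp18 passed without DMPT replicate 1 or vehicle replicate 3, Dusp14 passed without vehicle replicate 3, and the count of lower genes was 2 without that array.

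Of 16 other inhibitors of receptor and Ras signalling, Dab2 rose and Rasal2 fell, with a list median of 0.0038. Rasal2, a GTPase activating protein that turns Ras off, read between 10.35 and 10.62 in DMPT arrays and between 11.02 and 11.14 in vehicle arrays, and fell by 0.59 ± 0.081 log2 units (adjusted p = 0.000978). Like Spry1 and Spry2 it showed no overlap between the groups, as did 13.9% of all genes. Dab2, an endocytic adaptor, rose by 1.18 ± 0.31 (adjusted p = 0.0294), with vehicle replicates 2 and 4 low at 5.56 and 6.15 and the other vehicle arrays between 7.20 and 7.24. Its call was lost without DMPT replicates 1, 2, 3 or 5 or vehicle replicate 4, and once the RNA quality ratio entered the fit (adjusted p = 0.134). Socs5 differed by 0.26 ± 0.10 and did not pass (adjusted p = 0.133).

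Among 20 measured genes of the Ras and ERK cascade, 3 rose and 1 fell, and the median was -0.020. Map3k8, a kinase that activates MEK in stress and inflammation, rose by 0.80 ± 0.14 (adjusted p = 0.00483), the Ras gene Nras by 0.58 ± 0.14 (adjusted p = 0.0182) and Map2k1, which encodes MEK, by 0.44 ± 0.10 (adjusted p = 0.0197). These 3 genes, named for the smallest p of their list, did not overlap between the groups, as was so for 13.9% of all genes. Once the RNA quality ratio entered the fit, Nras differed by 0.44 (adjusted p = 0.0959) and Map2k1 by 0.45 (adjusted p = 0.0562), and only the call of Map3k8 among them was kept. The RAF kinase gene Araf, named after its value was seen because it was the 1 that fell, differed by -0.50 ± 0.14 (adjusted p = 0.0451). Its call was lost without any 1 of 8 arrays, that is, all but vehicle replicates 1 and 2, and a second Araf probe set of like brightness differed by 0.26 ± 0.12 in the other direction (adjusted p = 0.205). Of the 27 genes listed, 7 were not analysed here.

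In the p38 and JNK cascades, 2 of 25 genes rose, or 8.0%, close to the 7.13% of all genes, and 0 fell, with a median of 0.10. Map3k6, a kinase upstream of JNK and p38, rose by 0.74 ± 0.13 (adjusted p = 0.00523) and Mapkapk3, a kinase activated by p38, by 0.60 ± 0.13 (adjusted p = 0.0111). Map2k3, which activates p38, differed by 0.31 ± 0.11 (adjusted p = 0.0828). The count of higher genes was 4 without vehicle replicate 2. Over all probe sets, that setting called 2130 higher, against 1668 in the main fit.

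Glucocorticoid-responsive genes were set beside Dusp1, which shares that control. Of 9 measured, Ddit4 rose by 0.73 ± 0.14 (adjusted p = 0.00811), the kinase gene Sgk1 rose by 1.10 ± 0.26 (adjusted p = 0.0184) and the clock gene Per1 fell by 0.67 ± 0.15 log2 units (adjusted p = 0.0166). The call of Sgk1 was lost once the RNA quality ratio entered the fit (0.79, adjusted p = 0.10). The other 6 did not pass, and the median was -0.069. All 3 called genes are also known to answer to other signals.

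**Figure D4:**
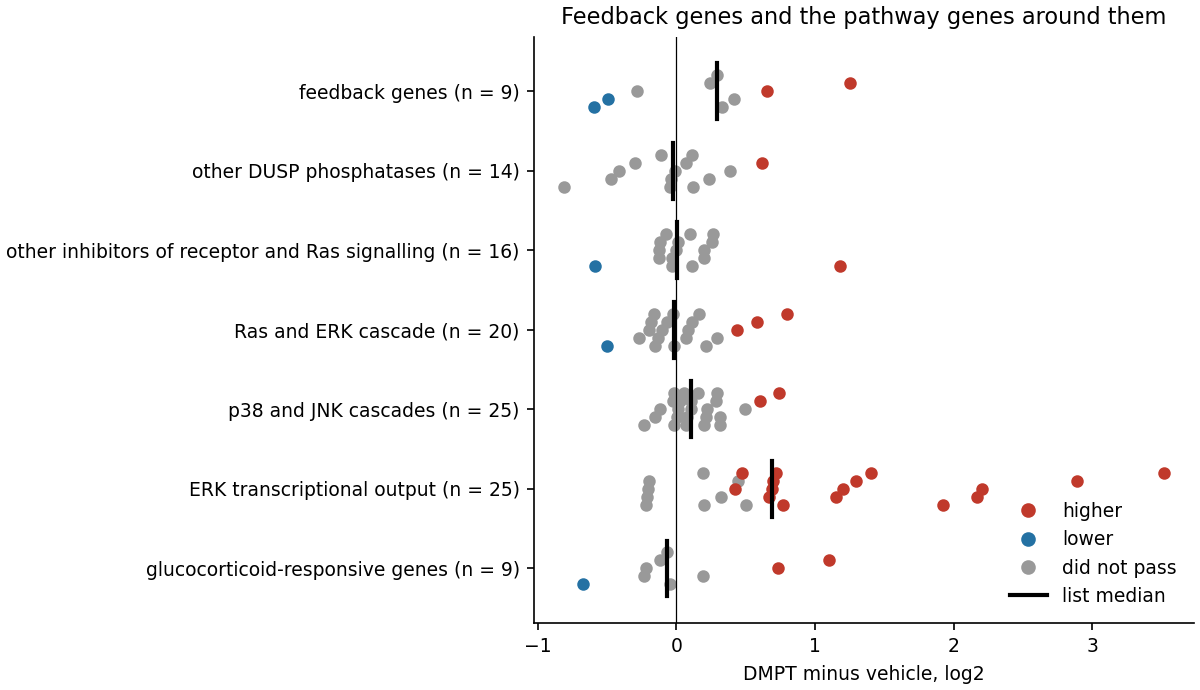
Difference between DMPT and vehicle (horizontal axis, log2) for each measured gene of the feedback group and of the 6 pathway lists, coloured by whether it passed the test, with the list median as a bar. The ERK output list has its median at 0.69, while the medians of the other 5 pathway lists lie between -0.069 and 0.10.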

How the data were processed

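Per the submitters' processing notes, the authors made the deposited log2 values with RMA, which corrects background, equalises arrays and summarises each probe set. The table holds 31099 probe sets and 10 arrays. Leaving out 57 controls, 20826 had 1 gene symbol in the platform annotation, 436 several and 9780 none. The probe set with the highest mean stood for a gene. The comparison of DMPT with vehicle used lmFit and eBayes of limma 3.58.1 (R 4.3.3), two-sided, with Benjamini-Hochberg adjustment over 31042 probe sets; the code was tested on simulated data. The authors' ORIOGEN test, named in the series' design text, was not run. Alternatives are given at the end. Precision is limited by the number of arrays. The feedback genes and 6 pathway lists were chosen with earlier results of these data known. Named genes were all feedback genes, the 3 smallest p of each list, and for each called feedback gene the 2 most similar genes. Markers Pecam1, Kdr, Cldn5, Krt5, Krt8 and Cldn7, and Etv1, Etv4, Etv5, Egr1, Emp1 and Araf, were named after their values were seen. Rats shared cages, which are not identified in the labels, so arrays were treated as independent. The deviations of equally numbered arrays had r from -0.067 to 0.234. The labels do not call these arrays pairs, so numbers were not taken as pairs. Promoter sequences came from RefSeq, assembly GRCr8.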

Additional observations from a re-analysis of the deposited data

Results flagged for a closer look

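In 76 groups of 5 arrays, 5 held an array far from the other 4 (a gap above 0.71 of the group's range); chance alone flags about 1 in 20 such groups. Dusp6 was lowest in DMPT replicate 5, at 11.17, with the other DMPT arrays between 11.43 and 11.50. Spry1 was highest in DMPT replicate 2, at 9.33, with the other DMPT arrays between 9.05 and 9.12. Map2k1 stood at 10.34 in DMPT replicate 4, with the other DMPT arrays between 9.94 and 10.00, and at 9.40 in vehicle replicate 4, with the other vehicle arrays between 9.62 and 9.70. Sgk1 was lowest in vehicle replicate 2, at 10.06, with the other vehicle arrays between 11.24 and 11.62.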

How the results depend on the processing

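The calls of Dusp5, Spry1 and Spry2 held under all 17 alternatives, and those of Dusp4 under 16. Leaving out single arrays, the feedback genes numbered 2 to 3 higher and always 2 lower (probe sets likewise). The ranges for the lists were 0 to 1 higher and 0 to 2 lower for other DUSP genes, 0 to 1 higher for other inhibitors, 0 to 1 lower for the Ras and ERK cascade, 2 to 4 higher for p38 and JNK, and 13 to 16 higher for ERK output. Once the RNA quality ratio entered the fit, 1 feedback gene (Dusp5, 1 probe set) was higher; other DUSP genes and other inhibitors had 0 higher, the Ras and ERK cascade 1 higher and 0 lower, glucocorticoid-responsive genes 1 higher and ERK output 12. In that fit 1328 of all probe sets were called higher and 951 lower, against 1668 and 1783 in the main fit. The ratio's range differed between the groups, and its part in any lost call was not tested. With the mean of a gene's probe sets, the Ras and ERK cascade had 5 higher and 0 lower. With array weights p38 and JNK had 5 higher, in a fit with 2280 higher and 2238 lower over all probe sets. Other DUSP genes had 1 lower with array weights, with the replicate block, with trend and robust settings and without the dimmest quartile, and 0 higher without that quartile, which removes Dusp8, Dusp2 and Spry4. The replicate block kept 2 feedback genes higher and 2 lower; it ended the call of Map2k1, gave Dusp14 one, and changed no other call of a named gene. The labels do not say that equal numbers pair animals. The Dusp6 probe set with the lowest mean, near 0 throughout, turned positive with array medians subtracted (0.029), without DMPT replicates 1, 4 or 5 and vehicle replicates 1, 3 or 4 (-0.089 to 0.053 over single arrays left out). The dim Dusp1 probe set was -0.0020 with array weights. The cause of these changes was not tested. Signal limits the fold sizes of Dusp2, Dusp4, Dusp5 and Spry4, which lie near the lower quartile of the arrays.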
